A study of Mus musculus with 12 samples.

Results

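Cholesterol synthesis and its control by SREBP2 were followed through 28 genes, of 46078 genes in the count table, in mouse spinal cord white matter. The genes were picked by symbol from textbook knowledge of the pathway, with earlier results of these data known. They are 8 enzymes that act up to and around farnesyl diphosphate, 12 enzymes from squalene to cholesterol, 4 regulators, and 4 genes that are targets of the pathway or move or turn over its products. All 28 had a row in the table, and all 28 passed the filter on low counts. C57Bl6 mice, with no genetic change named in the labels, formed 4 groups: young naïve mice (6 weeks), middle-aged naïve mice (8 months), young injured mice and middle-aged injured mice. Injured mice received lysolecithin, a lipid-disrupting detergent, in the ventrolateral white matter and were taken 72 h later, whereas naïve mice were not injured. White matter was cut out with a laser, tissue from 5 animals per condition was pooled, and 3 libraries were sequenced for each group. In a plot of transcript levels from this tissue, each data point stood for RNA pooled from 5 mice. Whether the 3 libraries of a group came from different mice is not given in the sources used here, so the p-values measure only the spread between libraries, which may be technical. Sex was not given for these mice.

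Cholesterol is the main sterol of myelin, and oligodendrocytes, the cells that wrap axons in myelin, make most of it themselves because lipoproteins of the blood do not cross into the central nervous system. Synthesis starts from acetyl-CoA, runs through mevalonate and the isoprenoids to squalene, closes the sterol ring as lanosterol and then trims lanosterol to cholesterol. SREBP2, the product of Srebf2, is the transcription factor that turns on nearly all of these enzymes. When sterols are low, the escort protein SCAP carries SREBP2 from the endoplasmic reticulum to the Golgi, where proteases release its active part, and when sterols are high, the INSIG proteins hold the complex back.

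Depth was similar in the 12 libraries, with 9834447 to 12807437 counts each. Levels below are CPM, a library's counts brought to a common total after TMM scaling, which sets most genes equal between libraries. Levels of different genes are ranked only as CPM per kilobase of exon, while sums over genes, shares of a sum and ratios of 2 genes are of CPM, not corrected for length, and are compared only between groups of libraries. Changes are log2 fold changes with standard errors (SE) from edgeR's quasi-likelihood test over 15866 genes, adjusted by the Benjamini-Hochberg method, and a gene is said to have risen or fallen where the adjusted p was under 0.05. The myelin transcript Mbp, which encodes myelin basic protein, was abundant in young naïve white matter, at 30697 ± 1256 CPM (mean ± SD, n = 3). Transcripts of astrocytes, neurons, endothelial cells and myeloid cells were also present. A single myelin marker cannot show that no grey matter was taken.

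Start sites of 24 of the 28 genes were listed with sequence in RefSeq's GRCm38.p6 annotation, leaving out Fdps, Fdft1, Sqle and Stard4. The 250 bases before the start are shown, 5′ to 3′, for the most abundant enzyme, for the enzyme whose response differed between ages, for the regulator with the strongest fall and for the one gene that rose in both ages. Capitals mark 3 motifs on either strand: TCACNCCAC, an SREBP site of the kind known from sterol-regulated genes, CCAAT, the site of NF-Y, and GGGCGG, the GC box of Sp1. NF-Y and Sp1 are known partners of SREBP2.
Hmgcs1 (chr13:119690101-119690350, plus strand): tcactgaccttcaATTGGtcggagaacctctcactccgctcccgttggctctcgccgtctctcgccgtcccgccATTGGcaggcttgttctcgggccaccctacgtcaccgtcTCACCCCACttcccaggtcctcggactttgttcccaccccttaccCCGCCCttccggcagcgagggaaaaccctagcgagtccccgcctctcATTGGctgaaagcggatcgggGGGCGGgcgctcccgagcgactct
Tm7sf2 (chr19:6067851-6068100, minus strand): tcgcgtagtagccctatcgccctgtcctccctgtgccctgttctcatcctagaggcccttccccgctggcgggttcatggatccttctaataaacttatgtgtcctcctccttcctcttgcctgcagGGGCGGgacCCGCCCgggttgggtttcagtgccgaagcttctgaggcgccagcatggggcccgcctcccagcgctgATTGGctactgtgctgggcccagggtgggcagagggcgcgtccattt
Insig1 (chr5:28071162-28071411, plus strand): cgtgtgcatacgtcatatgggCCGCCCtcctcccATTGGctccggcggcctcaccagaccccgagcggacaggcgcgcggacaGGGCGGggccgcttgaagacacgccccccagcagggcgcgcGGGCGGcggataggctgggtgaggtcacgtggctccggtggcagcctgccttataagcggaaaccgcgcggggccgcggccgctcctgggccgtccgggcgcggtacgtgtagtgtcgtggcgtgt
Mylip (chr13:45389492-45389741, plus strand): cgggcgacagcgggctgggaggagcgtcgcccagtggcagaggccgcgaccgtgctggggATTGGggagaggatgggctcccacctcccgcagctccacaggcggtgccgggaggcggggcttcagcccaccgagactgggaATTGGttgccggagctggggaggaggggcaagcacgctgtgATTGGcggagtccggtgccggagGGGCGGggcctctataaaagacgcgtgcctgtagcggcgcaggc

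Of these 4 windows, the one of Hmgcs1 held TCACNCCAC. That is 1 fixed string, and a window without it is not shown to lack an SREBP site. Over windows of 300 bases, from 250 before the start to 50 after it, TCACNCCAC was found in 1 of the 24 genes, and in 1.44% of 27025 mouse genes with such a window. The related CACCCCAC, which lies inside the Hmgcs1 match, was found in Acat2 and Hmgcs1, against 3.30% of all genes. CCAAT was found in 22 of the 24 genes, or 91.7%, against 41.1% of all genes and 42.5% of the genes tested here. GGGCGG was found in 22 of the 24, also 91.7%, against 38.2% of all genes and 66.5% of the genes tested. CACGTG, the E-box, was found in Dhcr7, Hsd17b7, Insig1, Sc5d and Scap, 20.8% of the 24 genes, against 8.09% of all genes and 11.3% of the genes tested. These matches are letters in a window and are not shown to be bound.

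Per kilobase of exon, Hmgcs1 was far above every other gene of the pathway in young naïve white matter, at 856 ± 152 CPM per kilobase. Hmgcs1 makes HMG-CoA, the last step before the reductase that commits carbon to mevalonate. Among the other enzymes the levels per length were 92.5 ± 8.29 for Sc5d, 91.1 ± 14.97 for Msmo1 and 83.8 ± 8.32 for Fdft1, which did not differ beyond their spread. Idi1, Cyp51 and Sqle followed at 68.6 ± 3.99, 63.4 ± 6.06 and 61.4 ± 6.54, again within their spread of each other. The lowest levels counted were those of Mvk, at 5.24 ± 0.761, and Fdps, at 1.84 ± 1.203. Exons of Fdps share 1124 bases with Gm43738 on the same strand. Of the 31-base stretches in its transcripts, 27.9% occur in other genes in the same sense. How such reads were counted is not given, so the rank of Fdps is uncertain. Among the regulators Insig1 stood at 118 ± 13.05 CPM per kilobase, Srebf2 at 27.3 ± 2.52, Insig2 at 9.99 ± 1.75 and Scap at 3.62 ± 0.342. The CPM of the 20 enzymes together made up 0.706 ± 0.0974% of the TMM-scaled total in young naïve white matter. Hmgcs1 alone was 55.5 ± 2.45% of that sum. The enzymes' share of the scaled total, which is not a share of raw counts, was 0.255 ± 0.00683% in naïve tissue of middle-aged mice. It was 0.192 ± 0.00819% in young injured white matter and 0.126 ± 0.00795% in the injured tissue of older mice, so that the groups stood in that order with no overlap between libraries.

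**Figure D1:**
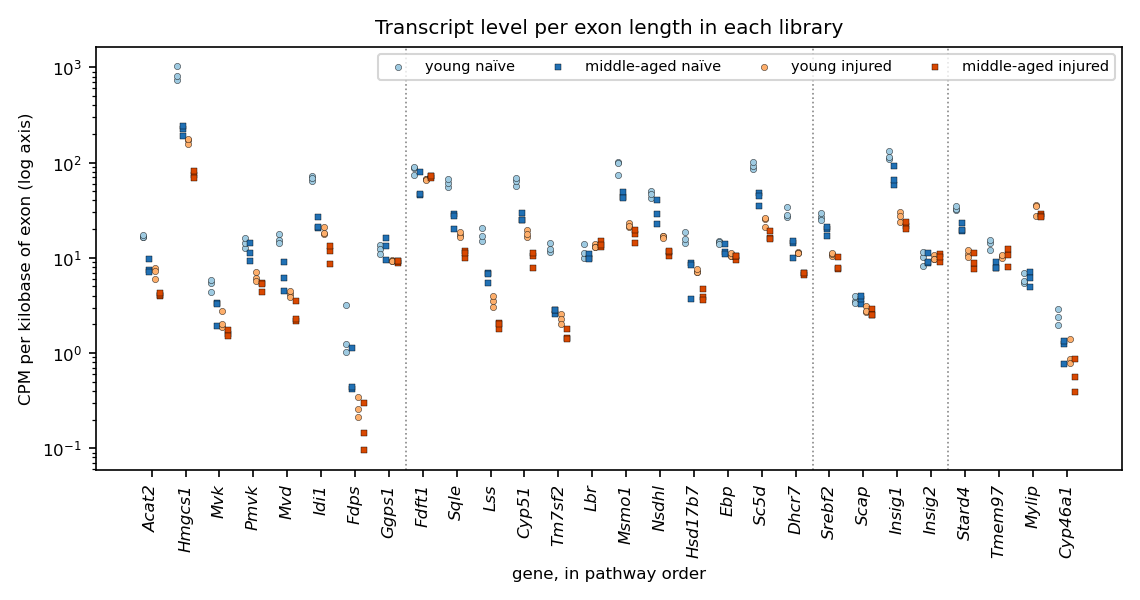
Each point is 1 library, placed at its CPM per kilobase of exon on a log axis, with the 28 genes in pathway order and dotted lines between the 8 mevalonate and isoprenoid enzymes, the 12 squalene and sterol enzymes, the 4 regulators and the 4 remaining genes. Hmgcs1 has the highest mean in each group, with Fdft1 overlapping it in middle-aged injured libraries, most enzymes step down from young naïve to middle-aged injured, Insig2 stays level, Mylip steps up with injury in both ages, and Lbr steps up in middle-aged mice.

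Injury in young mice lowered most of the pathway. The adjusted test called 21 of the 28 genes lower and 1 higher, where 26.3% of all genes tested were lower and 28.3% higher. The median log2 fold change was -1.37 over the 28 genes and -1.64 over the 20 enzymes, against 0.0005 over all genes. In 25 of the 28 genes the 3 injured libraries lay below the 3 naïve libraries, which was so for 32.2% of all genes. In bulk tissue, fewer cells of a type and less RNA per cell cannot be told apart.

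Among the mevalonate and isoprenoid enzymes 7 of 8 fell in young mice. Acat2, which condenses acetyl-CoA to acetoacetyl-CoA in the cytosol, measured 42.5, 42.3 and 43.9 CPM in the naïve libraries and 19.97, 18.4 and 15.3 in the injured libraries and fell by 58.3% (adjusted p = 1.32e-05). Hmgcs1 measured 3385, 3693 and 4717 CPM in naïve and 783, 717 and 818 in injured white matter, a log2 fold change of -2.35 (SE 0.15, adjusted p = 9.86e-09). The groups were thus far apart, with the highest injured library well under the lowest naïve library. Mvk and Pmvk, the kinases that phosphorylate mevalonate in turn, both fell. Mvk counts were low, at 11.8, 14.6 and 15.7 CPM in naïve and 4.99, 7.36 and 5.35 in injured libraries, and fell by 57.9%. Pmvk measured 21.8, 24.5 and 27.4 CPM against 12.1, 10.5 and 9.86 and fell by 55.9%. Mvd, the decarboxylase that makes isopentenyl diphosphate, went from 28.5, 26.3 and 32.7 CPM to 7.78, 8.37 and 7.15 and fell by 73.3% (adjusted p = 1.97e-05). Idi1, the isomerase that turns isopentenyl into dimethylallyl diphosphate, went from 227, 255 and 239 CPM to 73.04, 62.8 and 63.1 (log2 -1.86, SE 0.16, adjusted p = 2.23e-07). Each of these 6 genes kept its libraries apart between naïve and injured tissue. Fdps, the farnesyl diphosphate synthase, had few counts, from 5 to 126 in a library, and measured 5.28, 4.35 and 13.5 CPM in naïve and 1.47, 1.09 and 0.904 in injured libraries. Its log2 fold change of -2.73 carried an SE of 0.54, and 1 naïve library was far above the other two. Ggps1, which extends farnesyl to geranylgeranyl diphosphate for protein prenylation and so lies off the route to sterols, measured 63.9, 58.9 and 51.9 CPM in naïve and 44.9, 43.4 and 44.1 in injured white matter. Its change of -0.40 missed the threshold (adjusted p = 0.0502) and passed it without young naïve library 3 (adjusted p = 0.0395) and without middle-aged naïve library 2 or 3 (adjusted p = 0.00758 and 0.0249).

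Among the squalene and sterol enzymes 10 of 12 fell in young mice. Sqle, the epoxidase that first adds oxygen to squalene, measured 304, 342 and 376 CPM in naïve and 96.6, 92.4 and 102 in injured libraries (log2 -1.81, SE 0.14, adjusted p = 9.13e-08). Lss, which folds the epoxide into lanosterol, went from 162, 182 and 219 CPM to 38.02, 32.7 and 42.3 and fell by 79.9%. Cyp51, the demethylase that starts the trimming of lanosterol, went from 251, 285 and 304 CPM to 87.3, 72.6 and 77.7 and fell by 71.7%. The fitted changes of Sqle and Cyp51 were close to that of Idi1, and that of Lss was larger. Tm7sf2, a sterol reductase that removes the double bond at carbon 14, had the second largest fall of the 28, from 50.3, 53.9 and 63.4 CPM to 11.4, 9.999 and 8.89 (log2 -2.47, SE 0.17, adjusted p = 2.78e-08). Lbr, the lamin B receptor, has the same reductase activity beside its role in the nuclear envelope. Unlike Tm7sf2 it measured 47.2, 53.1 and 66.8 CPM in naïve and 66.1, 61.6 and 61.4 in injured libraries, which overlap (log2 0.18, adjusted p = 0.276). Without young naïve library 3 the Lbr change was 0.33 and passed (adjusted p = 0.0410).

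Msmo1, Nsdhl and Hsd17b7 together strip the methyl groups at carbon 4. Msmo1 went from 454, 617 and 609 CPM to 143, 131 and 132 in young mice and fell by 75.8%. Nsdhl went from 122, 142 and 132 CPM to 47.9, 48.4 and 46.1 and fell by 63.99%. Hsd17b7 went from 72.97, 94.9998 and 81.2 CPM to 36.4, 36.5 and 38.8 and fell by 55.2%. The injured libraries of these 3 enzymes differed from each other by little compared with the gap to naïve tissue. Ebp, the isomerase that moves the double bond in the sterol nucleus, changed least among the genes called, from 34.7, 34.2 and 32.2 CPM to 24.4, 23.9 and 25.8 (log2 -0.45, SE 0.14, adjusted p = 0.0139). The Ebp call was lost without young injured library 1 or 2 (adjusted p = 0.0516 and 0.0565), with library totals alone as the scaling (log2 -0.25, adjusted p = 0.127) and with no filter on low counts (adjusted p = 0.0707). Sc5d and Dhcr7 carry out late steps, the desaturation at carbon 5 and the reduction of 7-dehydrocholesterol. Sc5d went from 413, 444 and 493 CPM to 123, 101 and 127 and fell by 73.99%. Dhcr7 went from 156, 165 and 199.7 CPM to 66.7, 64.6 and 65.2 and fell by 62.3%. Fdft1, the squalene synthase, stood apart from its neighbours in the route, with 314, 371 and 378 CPM in naïve and 287, 286 and 274 in injured libraries (log2 -0.33, adjusted p = 0.128), and without middle-aged naïve library 2 its fall passed (adjusted p = 0.00838). Exons of Fdft1 share 774 bases with Ctsb, a lysosomal protease gene on the opposite strand, and Ctsb rose from 387 ± 8.57 to 6550.3 ± 92.7 CPM. Whether reads were counted by strand is not given in the sources used here, and the part of Ctsb reads in the Fdft1 counts was not tested.

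**Figure D2:**
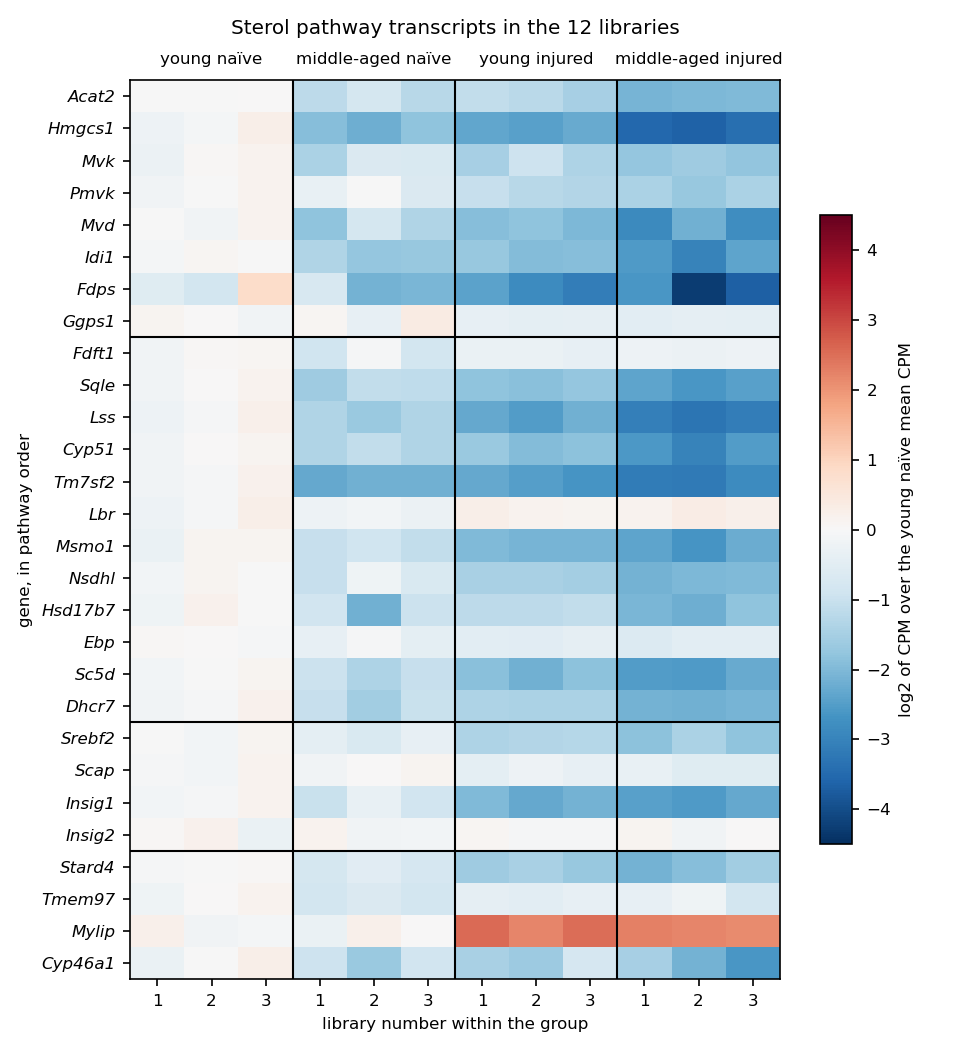
Rows are the 28 genes in pathway order and columns the 12 libraries, and colour gives the log2 of a library's CPM over the mean CPM of the 3 young naïve libraries (blue lower, red higher). Blue deepens from middle-aged naïve through young injured to middle-aged injured libraries for most enzymes and for Insig1, Insig2 stays pale throughout, and Mylip is red in all 6 injured libraries.

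The regulators did not move as 1 group with injury in young mice. Insig1, itself a well-known target of SREBP2, measured 333, 351 and 410.1 CPM in naïve and 92.6, 73.5 and 84.1 in injured libraries, a fall of the size seen in the enzymes (log2 -2.13, SE 0.17, adjusted p = 1.08e-07). Srebf2 measured 195, 178 and 215 CPM in naïve and 75.3, 78.7 and 79.8 in injured libraries (log2 -1.33, SE 0.13, adjusted p = 1.30e-06). Scap measured 26.1, 24.9 and 29.8 CPM in naïve and 19.97, 23.1 and 20.7 in injured libraries and missed the threshold (log2 -0.34, adjusted p = 0.0666), though not without middle-aged naïve library 2 (adjusted p = 0.0475), with upper quartile scaling (0.0394) or with only the libraries compared (0.0425). Insig2, the second INSIG, is known to be controlled less by SREBP2 than Insig1 is. It measured 35.8, 40.2 and 28.2 CPM in naïve and 36.8, 33.6 and 33.5 in injured libraries, and the 95% interval of its log2 fold change ran from -0.34 to 0.33. Its sign depended on the scaling and on which library was left out. The ratio of Insig1 to Srebf2 CPM was 1.86 ± 0.134 in young naïve and 1.07 ± 0.148 in young injured libraries, with no overlap.

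The 4 remaining genes went 3 ways in young mice. Mylip, whose product marks lipoprotein receptors for degradation and is induced by sterol-sensing LXR receptors, rose 5.42-fold, from 22.5, 17.5 and 18.3 CPM to 115, 89.2 and 112 (log2 2.44, SE 0.16, adjusted p = 1.81e-08). Stard4, a carrier of cholesterol between membranes and an SREBP2 target, went from 178, 183 and 194 CPM to 61.9, 67.4 and 57.5 and fell by 66.4%. Cyp46a1, the neuronal enzyme that turns cholesterol into 24S-hydroxycholesterol for export, went from 6.47, 7.80 and 9.57 CPM to 2.86, 2.56 and 4.67 and fell by 57.5% (adjusted p = 0.00669). Mylip was thus the single gene of the 28 called higher. Tmem97, the sigma-2 receptor of the endoplasmic reticulum, measured 16.8, 19.7 and 21.2 CPM in naïve and 14.5, 13.7 and 14.8 in injured libraries and was not called (adjusted p = 0.0677), though it was without middle-aged naïve library 2 (adjusted p = 0.0457).

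Injury in middle-aged mice lowered 22 of the 28 genes and raised 2, where 29.3% of all genes tested were lower and 29.2% higher. The median log2 fold change was -1.0005 over the 28 genes and -1.11 over the 20 enzymes, against -0.03 over all genes. The 3 injured libraries lay below the 3 naïve libraries in 21 of the 28 genes, which was so for 29.7% of all genes. The share of counts from mt-Rnr2, the large ribosomal RNA of mitochondria, was 13.9% to 15.4% in the naïve and 7.67% to 12.4% in the injured libraries, with no overlap, and its part in the levels was not tested. This comparison and the one in young mice set no library in common against another. Both come from 1 model of all 12 libraries and share its estimate of spread, so their tests are not independent.

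All 8 mevalonate and isoprenoid enzymes fell in middle-aged mice. Hmgcs1 measured 1044, 864 and 1118 CPM in naïve and 336, 312 and 370.028 in injured libraries (log2 -1.57, SE 0.14, adjusted p = 3.58e-07). Acat2 went from 19.1, 24.9 and 18.003 CPM to 10.1, 10.5 and 10.8 and fell by 49.3%. Idi1 went from 93.5, 72.2 and 73.1 CPM to 41.2, 30.1 and 46.4 and fell by 50.8%. For Hmgcs1, Acat2, Idi1, Mvk and Mvd all middle-aged naïve libraries already lay below all young naïve ones, though the test of age did not call Mvk. Mvk, with 5.18, 8.92 and 8.80 CPM in naïve and 4.23, 4.63 and 4.06 in injured libraries, fell by 43.5%. Pmvk, with 19.3, 24.3 and 15.8 against 9.21, 7.51 and 9.15, fell by 56.4%, and Mvd, with 8.26, 16.8 and 11.3 against 3.98, 6.55 and 4.23, fell by 59.1%. Fdps was again thinly counted, at 4.70, 1.78 and 1.84 CPM in naïve and 1.25, 0.399 and 0.604 in injured libraries (log2 -1.87, SE 0.58, adjusted p = 0.0130). The Fdps call was lost without middle-aged naïve library 1 or middle-aged injured library 2 (adjusted p = 0.0843 and 0.0600). Ggps1 went from 62.3, 44.6 and 75.8 CPM to 42.1, 43.9 and 43.2 (log2 -0.50, SE 0.16, adjusted p = 0.0162), a call that was lost without middle-aged naïve library 3 or middle-aged injured library 1 (adjusted p = 0.103 and 0.0518).

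Of the 12 squalene and sterol enzymes 9 fell and 1 rose in middle-aged mice. Lss went from 73.8, 59.1 and 73.3 CPM to 22.5, 19.5 and 21.8, the largest fall of the 12 on the log2 scale (log2 -1.69, SE 0.15, adjusted p = 3.24e-07). Sqle went from 112, 159 and 153 CPM to 65.8, 55.4 and 61.9 and fell by 56.8%. Cyp51 went from 109, 129 and 109 CPM to 46.6, 34.7 and 49.3 and fell by 62.3%. For these 3 enzymes the libraries of the groups did not overlap. Nsdhl, with 63.8, 115 and 81.3 CPM in naïve and 29.9, 32.4 and 33.6 in injured libraries, fell by 63.1%. Msmo1, with 269, 302 and 262 against 108, 88.6 and 119.7, fell by 62.04%. Sc5d, with 231, 172 and 218 against 78.2, 77.2 and 93.4, fell by 59.9%, and Dhcr7, with 83.6, 58.1 and 86.5 against 40.2, 38.5 and 40.4, fell by 47.9%. Tm7sf2 had a smaller fitted change than these 4, from 11.4, 12.6 and 12.4 CPM to 6.31, 6.15 and 7.86 (log2 -0.84, SE 0.17, adjusted p = 0.000797).

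The remaining sterol enzymes of middle-aged mice were closer to the threshold. Hsd17b7 was called lower (log2 -0.79, adjusted p = 0.0140), but its naïve libraries, at 45.3, 18.7 and 42.8 CPM, overlapped the injured ones at 19.8, 18.3 and 23.7. Its call was lost without middle-aged naïve library 1 or 3 (adjusted p = 0.0695 and 0.0626) and without middle-aged injured library 2 (adjusted p = 0.0560). Lbr, the second reductase of carbon 14, rose from 47.4, 51.7 and 46.2 CPM to 62.3, 70.99 and 65.2 (log2 0.45, SE 0.13, adjusted p = 0.0103), a call that was lost without middle-aged injured library 2 (adjusted p = 0.0503). Of the enzymes that share this reaction, then, the one fell and the other rose. Ebp, with 26.3, 32.4 and 25.04 CPM against 21.8, 24.04 and 24.2, was not called (log2 -0.26, adjusted p = 0.133). Fdft1, with 192, 339 and 199 CPM against 306, 293 and 305, was not called either (log2 0.31, adjusted p = 0.145). Naïve library 2 was far above the other two for Fdft1, and without it Fdft1 was called higher (log2 0.63, adjusted p = 0.000173), with Ctsb at 477 ± 59.7 CPM in naïve and 8095 ± 1451 in injured libraries.

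Of the regulators Insig1, Srebf2 and Scap fell in middle-aged mice. Insig1 measured 179.9, 288 and 203 CPM in naïve and 67.3, 61.96 and 73.8 in injured libraries (log2 -1.72, SE 0.17, adjusted p = 7.03e-07). Srebf2 measured 144, 121 and 151 CPM in naïve and 55.1, 73.1 and 55.5 in injured libraries (log2 -1.18, SE 0.14, adjusted p = 3.83e-06). Scap fell less, from 24.3, 27.3 and 29.2 CPM to 21.6, 18.5 and 18.6 (log2 -0.46, SE 0.15, adjusted p = 0.0159). Without middle-aged naïve library 3 or middle-aged injured library 2 or 3 the Scap call was lost, at adjusted p of 0.0539, 0.0543 and 0.0574. It was also lost with library totals alone and with no filter on low counts (adjusted p = 0.0579 and 0.0790). Insig2 measured 38.9, 30.7 and 31.5 CPM in naïve and 37.9, 31.1 and 35.1 in injured libraries, and the 95% interval of its log2 fold change ran from -0.30 to 0.38. That interval leaves out a change of the size of Insig1.

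Mylip rose 4.58-fold in middle-aged mice, from 15.9, 22.9 and 19.7 CPM to 93.2, 88.7 and 85.8 (log2 2.20, SE 0.16, adjusted p = 4.03e-08). Stard4 went from 106, 129 and 109 CPM to 42.4, 49.1 and 62.4 and fell by 55.2%. Cyp46a1 was called lower at the edge of the threshold (adjusted p = 0.0470), with 4.13, 2.52 and 4.40 CPM in naïve and 2.82, 1.84 and 1.30 in injured libraries that overlap. The Cyp46a1 call was lost in 9 of the 12 fits that left out 1 library (adjusted p up to 0.170 without middle-aged injured library 3), the exceptions being those without middle-aged naïve library 2, young injured library 3 or middle-aged injured library 1, and with the other scaling and testing choices listed in the closing section. Tmem97, with 10.8, 12.4 and 10.7 CPM against 14.9, 16.9 and 10.96, was not called (adjusted p = 0.141), and without middle-aged injured library 3 it was called higher (adjusted p = 0.0403).

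**Figure D3:**
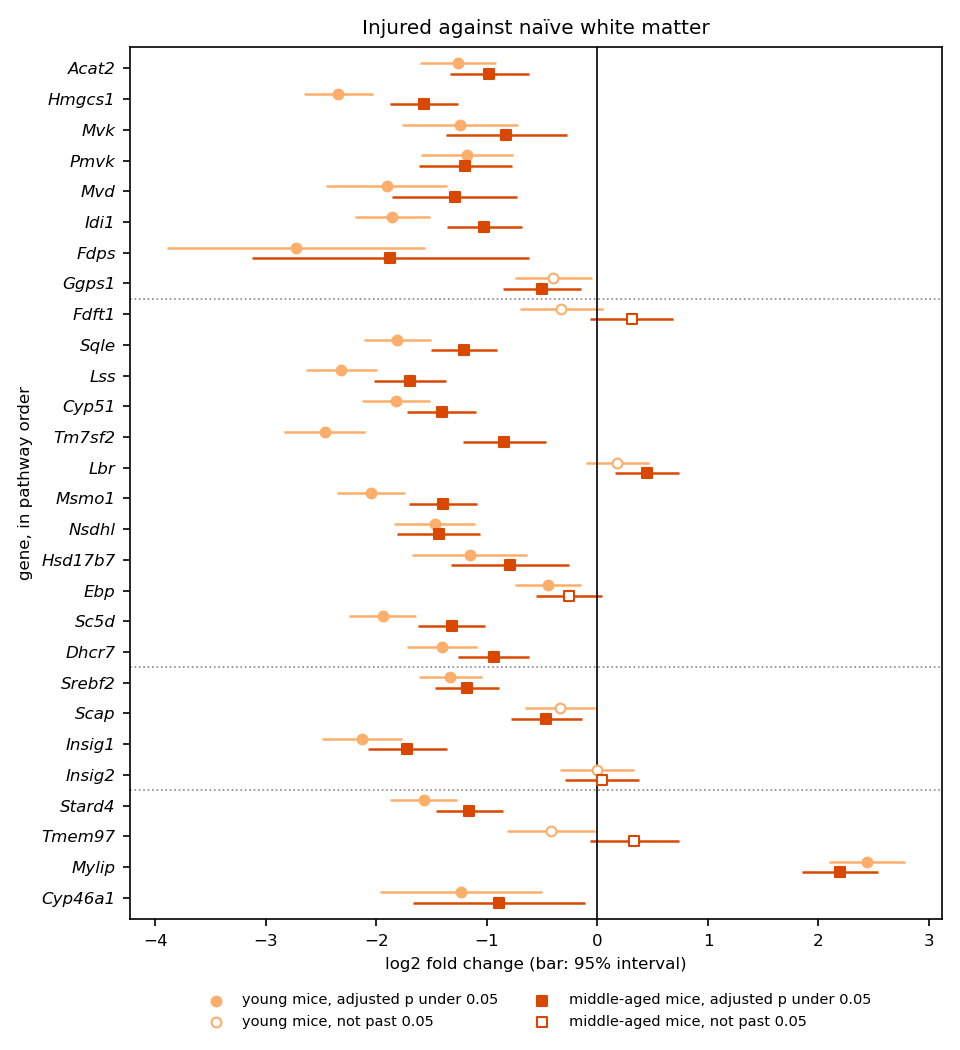
Points give the log2 fold change of injured over naïve white matter for each of the 28 genes and bars its 95% interval, with circles for young and squares for middle-aged mice, filled where the adjusted p was under 0.05. Most enzymes lie left of 0 in both ages with the young value further left, Insig2 sits on 0, and Mylip lies between 2 and 3 on the right.

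Age was the second comparison, and it was made first in tissue without injury. In naïve white matter 15 of the 28 genes were lower in the older mice and 0 were higher, where 1.78% of all genes tested were lower and 2.02% higher. At an unadjusted p under 0.05, edgeR called 21 genes lower and 0 higher, and DESeq2 called 19 lower and 0 higher at an adjusted p under 0.05. The shares over all genes above belong to edgeR's adjusted test alone. They are no measure for these counts, for which no share over all genes is given here. The median log2 fold change was -0.94 over the 28 genes and -1.16 over the 20 enzymes, against 0.01 over all genes. In 19 of the 28 genes the middle-aged libraries lay below the young ones, which was so for 9.34% of all genes. The mt-Rnr2 share moved with age as well. Young naïve libraries held 9.90% to 12.4% and middle-aged naïve ones 13.9% to 15.4%, with no overlap, and its part in these differences was not tested. The young naïve libraries used here also serve as the reference for injury in young mice.

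Of the 20 enzymes 12 were lower in middle-aged naïve tissue, with the library values listed for the injury comparisons. Tm7sf2 fell the most, fell by 78.3% (log2 -2.20, SE 0.17, adjusted p = 1.14e-05), and its middle-aged values of 11.4, 12.6 and 12.4 CPM were close to each other. Hmgcs1 fell by 74.3% (log2 -1.96, SE 0.14, adjusted p = 8.16e-06). The highest middle-aged library of Hmgcs1, at 1118 CPM, was under the lowest young one, at 3385 CPM. Idi1 fell by 66.9%, Lss fell by 63.4%, Cyp51 fell by 58.7% and Sqle fell by 58.5%. Mvd fell by 58.5%, Hsd17b7 fell by 57.03% and Dhcr7 fell by 56.1%. Sc5d fell by 54.03%, Acat2 fell by 51.9% and Msmo1 fell by 50.4%. The 8 enzymes not called were Mvk (adjusted p = 0.0646), Nsdhl (adjusted p = 0.0626), Pmvk, Fdps, Ggps1, Fdft1, Lbr and Ebp. Mvk and Nsdhl had no overlap between the groups, whereas the libraries of the other 6 overlapped.

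Of the regulators Insig1 was lower in middle-aged naïve tissue (log2 -0.71, SE 0.16, adjusted p = 0.0287). Srebf2 missed the threshold (log2 -0.50, SE 0.13, adjusted p = 0.0527) with all 3 middle-aged libraries under the young ones. Scap (0.00, SE 0.15) and Insig2 (-0.04, SE 0.16) had log2 fold changes close to 0. Stard4 fell by 38.2% and Tmem97 fell by 41.1% (adjusted p = 0.0143 and 0.0394). Cyp46a1 was not called (adjusted p = 0.0971), and the log2 fold change of Mylip was 0.0034, with a 95% interval from -0.34 to 0.35. The naïve libraries of Mylip overlapped between the ages.

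Some of these calls depended on which libraries set the error. With the 6 naïve libraries alone 9 of the 15 calls were left, those of Acat2, Mvd, Hsd17b7, Insig1, Stard4 and Tmem97 being lost. Testing for a change beyond 1.5-fold left 8. Leaving out 1 library at a time gave 11 to 18 genes. No share over all genes is given for the counts of these alternatives. Without young naïve library 2 Hsd17b7 and Stard4 were lost (adjusted p = 0.0662 and 0.0515). The Insig1 call was lost without young naïve library 2 or 3, middle-aged naïve library 1 or 3, young injured library 3 or middle-aged injured library 1 (adjusted p up to 0.0865, without young naïve library 3). The Tmem97 call was lost in 9 of the 12 such fits (adjusted p up to 0.119, without young naïve library 2) and kept without middle-aged naïve library 2 and middle-aged injured libraries 2 and 3.

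After injury 7 of the 28 genes were lower in the older mice and 0 were higher, where 0.908% of all genes tested were lower and 0.24% higher. At an unadjusted p under 0.05, edgeR called 14 genes lower and 0 higher, and DESeq2 called 9 lower and 0 higher at an adjusted p under 0.05. Again no share over all genes is given for these counts, since those above belong to edgeR's adjusted test. The 7 were all enzymes: Acat2, Hmgcs1, Idi1, Sqle, Lss, Cyp51 and Dhcr7. Hmgcs1 fell by 56.1% (log2 -1.19, SE 0.14, adjusted p = 0.00142). Cyp51 fell by 45.04%, Lss fell by 43.6% and Acat2 fell by 41.5%. Idi1 fell by 40.9%, Dhcr7 fell by 39.4% and Sqle fell by 37.2%. All 7 had their 3 middle-aged libraries below the 3 young ones, as had 16 of the 28 genes and 12.2% of all genes. The median log2 fold change was -0.47 over the 28 genes, against 0.00 over all genes.

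None of the 4 regulators and none of the 4 remaining genes was called between the ages after injury in edgeR's test. Srebf2 had an unadjusted p of 0.0213 (log2 -0.35, SE 0.13, adjusted p = 0.341) and was the one gene of these 8 under 0.05 unadjusted. Insig1 (-0.30, adjusted p = 0.652), Scap (-0.12) and Insig2 (0.00) had log2 fold changes whose intervals included 0. Mylip, at -0.24, also had an interval that included 0, from -0.56 to 0.08.

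The count of 7 rested on single libraries. Without young naïve library 2 it was 3, without young injured library 1, 2 or 3 it was 2, 3 and 1, and without middle-aged injured library 1, 2 or 3 it was 2, 1 and 3. Without young naïve library 1 it was 6, and without middle-aged naïve library 2 it was 10. Hmgcs1 kept its call in each of these fits (adjusted p up to 0.0239 over the alternatives other than the test beyond 1.5-fold), and Cyp51 lost it without young injured library 3 or middle-aged injured library 2 (adjusted p = 0.0552 and 0.0688). Testing for a change beyond 1.5-fold left 0 of the 7, so that Hmgcs1 lost its call there too. Here too the counts of the alternatives stand without a share over all genes.

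**Figure D4:**
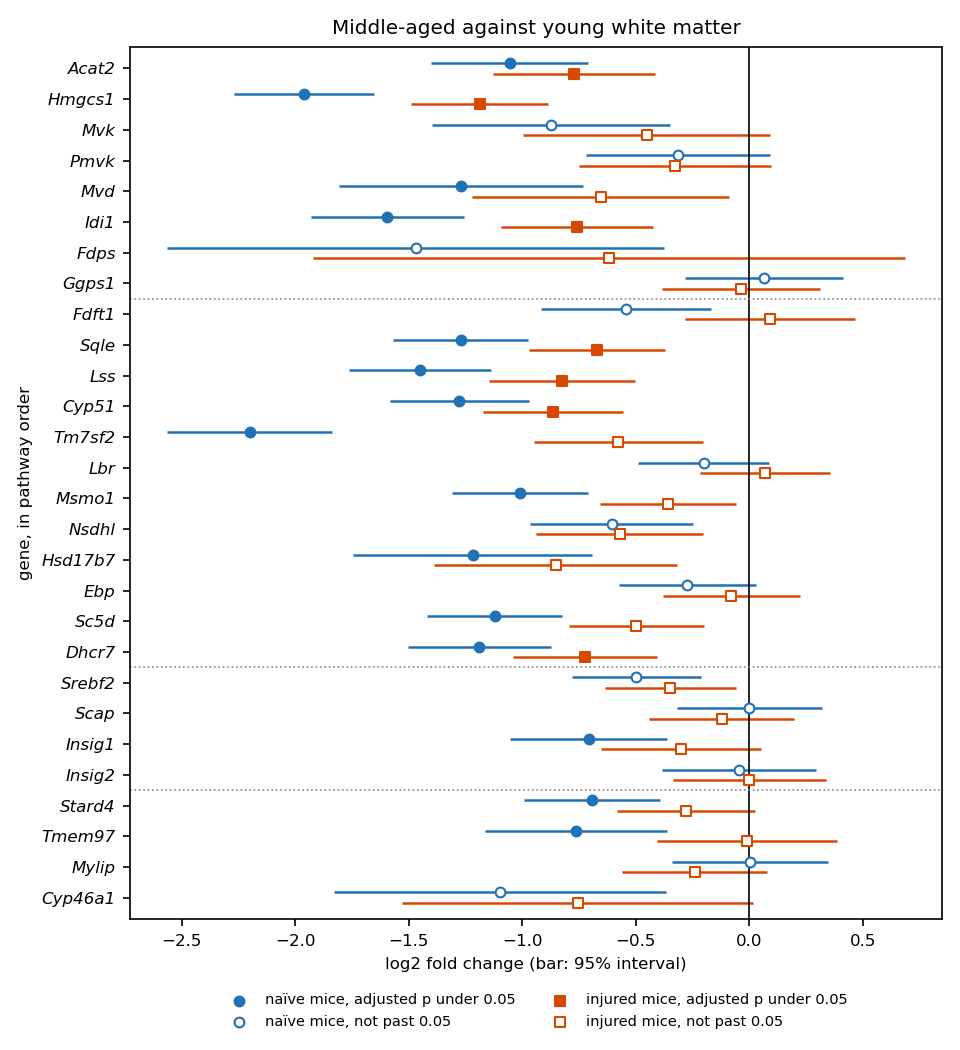
Points give the log2 fold change of middle-aged over young white matter for each of the 28 genes and bars its 95% interval, with circles for naïve and squares for injured mice, filled where the adjusted p was under 0.05. Hmgcs1 and Tm7sf2 lie furthest left in naïve tissue, most injured values lie closer to 0 than the naïve ones, and Ggps1, Insig2, Scap and Mylip lie near 0 in naïve tissue.

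Whether the fall with injury itself differed between the ages was tested as the difference of the log2 fold changes, middle-aged minus young. The test called 1 of the 28 genes, Tm7sf2, and 0 in the other direction, where 0.0567% of all genes tested were called higher and 0.0819% lower. At an unadjusted p under 0.05 the counts were 10 higher and 0 lower, and DESeq2 called 3 higher and 0 lower at an adjusted p under 0.05. Neither pair of counts can be read against the shares above, which belong to edgeR's adjusted test. Shares over all genes at these cuts are not given here. Tm7sf2 fell by 81.9% in young and fell by 44.2% in middle-aged mice, a difference of 1.63 on the log2 scale (SE 0.24, adjusted p = 0.0227). The injured libraries spanned 8.89 to 11.4 CPM in young and 6.15 to 7.86 CPM in middle-aged mice, whereas the naïve ones spanned 50.3 to 63.4 and 11.4 to 12.6 CPM. The call was lost without young naïve library 2 (adjusted p = 0.0611), without young injured library 2 or 3 (adjusted p = 0.0905 and 0.0814) and without middle-aged injured library 1 or 2 (adjusted p = 0.0508 and 0.0513). Without middle-aged naïve library 2 the count was 2, again with no share over all genes given.

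Across the 28 genes the fitted difference was above 0 in 24, that is, the middle-aged log2 fold change was the less negative or the more positive one, with a median of 0.41 against -0.05 over all genes. For genes other than Tm7sf2 this difference did not pass the test. For Hmgcs1 it was 0.78 (SE 0.20, adjusted p = 0.147) and for Idi1 0.84 (SE 0.22, adjusted p = 0.158). For the regulators it was 0.41 for Insig1, 0.15 for Srebf2, -0.12 for Scap and 0.04 for Insig2, each with a 95% interval that included 0. For Mylip it was -0.24, with an interval from -0.71 to 0.23. All 4 groups enter this difference, so that a low naïve level in middle-aged mice counts toward it.

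Sums over the enzymes and over the regulators were compared between the groups. The summed level of the 20 enzymes was 7055 ± 974 CPM in young and 2552 ± 68.4 CPM in middle-aged naïve white matter, and 1923 ± 81.5 CPM in young and 1255 ± 79.97 CPM in middle-aged injured white matter (mean ± SD, n = 3). The summed level of the 4 regulators was 622 ± 52.4, 423 ± 40.6, 217 ± 7.94 and 183 ± 1.43 CPM in the same order. Both sums stepped down in that order with no overlap between neighbouring groups. Hmgcs1 weighs most in the first sum, and its share of it was 55.5 ± 2.45%, 39.5 ± 4.35%, 40.1 ± 1.29% and 27.03 ± 0.612% of the enzyme sum. The share of Hmgcs1 overlapped between middle-aged naïve and young injured libraries and was lowest in middle-aged injured ones. The ratio of Insig1 to Srebf2 CPM was 1.66 ± 0.622 in middle-aged naïve and 1.13 ± 0.253 in middle-aged injured libraries, which overlapped.

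Markers of other cell types moved in the same libraries. All 7 oligodendrocyte markers (Mbp, Mog, Mag, Cnp, Mobp, Opalin and Ermn) fell with injury in both ages, with a median log2 fold change of -2.03 in young and -2.34 in middle-aged mice. With age 3 of the 7 were lower in naïve and 5 of the 7 in injured tissue, where 1.78% and 0.908% of all genes were lower. Their summed level ranged from 41438 to 45647 CPM in young and from 27852 to 33972 CPM in middle-aged naïve libraries, and from 10634 to 10823 CPM in young and from 4736 to 7405 CPM in middle-aged injured libraries. The mean log2 CPM of the 20 enzymes less that of the 7 markers, taken within each library, was -4.14 ± 0.03 in young naïve and -4.60 ± 0.06 in middle-aged naïve libraries. It was -3.48 ± 0.18 in the injured libraries of young and -3.16 ± 0.15 in those of middle-aged mice. The enzymes thus stood lower beside these markers in middle-aged than in young naïve tissue and higher beside them after injury than before it, with no overlap between the groups in either case. The part of oligodendrocyte number in the enzyme levels was not tested.

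**Figure D5:**
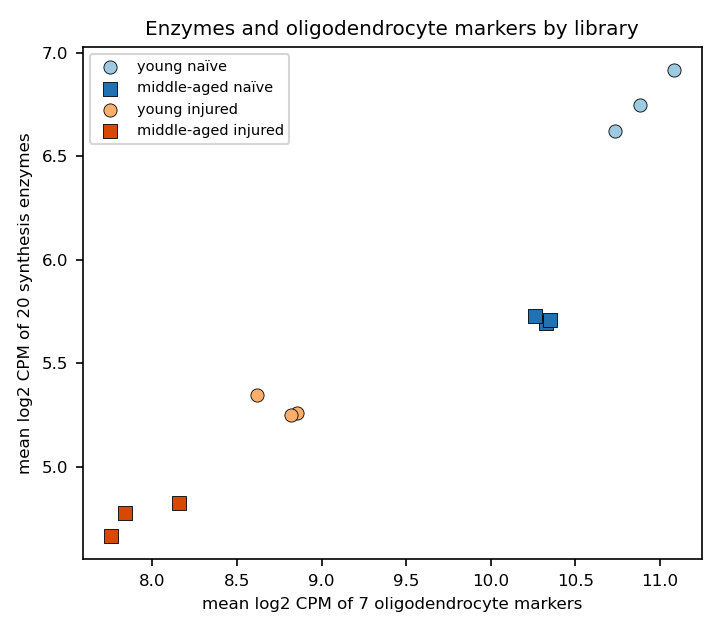
Each point is 1 library, with the mean log2 CPM of 7 oligodendrocyte markers on the horizontal and that of the 20 synthesis enzymes on the vertical axis. The 4 groups form separate clusters, and the mean of the markers is 10.90 in young naïve and 10.31 in middle-aged naïve libraries, a smaller gap than that of the enzymes on the vertical axis.

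Counts for the other marker lists are read against all genes, of which 26.3% to 29.3% were called in each direction with injury in either age. With age 2.02% of all genes were higher and 1.78% lower in naïve tissue, and 0.908% were lower in injured tissue. All 7 myeloid markers rose with injury in both ages, and their summed level went from 86.5 to 122 CPM over the young naïve libraries to 1536 to 1572 over the young injured ones. In middle-aged mice it went from 130.4 to 198.5 CPM to 1582 to 2295, and 4 of the 7 were higher with age in naïve tissue. All 3 fibroblast markers rose with injury in both ages, and 2 of them were lower with age in injured tissue. In each age 4 of 5 astrocyte markers fell with injury. The summed level of 4 neuron markers differed within the young naïve group, from 681 to 1976 CPM, and with injury 2 of them fell in young mice, while 3 fell and 1 rose in middle-aged mice. Cyp46a1, the neuronal member, fell with injury in both ages, and the part of neuronal RNA in its fall was not tested. Of 3 oligodendrocyte progenitor markers 2 rose with injury in each age and 1 was lower with age in naïve and in injured tissue. Of 3 endothelial markers 1 rose with injury in each age, 1 fell in middle-aged mice and 1 was higher with age in naïve tissue. With injury, such counts for the neuron and endothelial lists in young mice and for the endothelial list in middle-aged mice are close to what the share over all genes gives. The Schwann cell markers Prx and Pmp2 did not pass the filter, and their summed level was at most 0.880 CPM outside 1 young injured library at 2.50 CPM. The part of these cell types in the levels of the 28 genes was not tested.

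A further 25 genes have a known place around the pathway. With injury in young mice 9 of the 25 rose and 6 fell, where 28.3% of all genes rose and 26.3% fell. In middle-aged mice 13 rose and 7 fell, where 29.2% of all genes rose and 29.3% fell, so that the falls in both ages and the rises in young mice were near the share over all genes. Those that rose most in both ages were Nfya, a subunit of NF-Y, and Erlin1, which acts in sterol-regulated degradation at the endoplasmic reticulum. Nfya had log2 fold changes of 2.02 (SE 0.17) in young and 2.09 (SE 0.17) in middle-aged mice, and Erlin1 of 1.62 (SE 0.22) and 1.66 (SE 0.22). Next came Pdss1, a subunit of the enzyme that makes the tail of coenzyme Q, in young mice (0.66, SE 0.22) and Por, the electron donor of Cyp51 and Sqle, in middle-aged mice (1.23, SE 0.19). Those that fell most were Fntb and Fnta, the subunits of the farnesyltransferase that attaches farnesyl to proteins. Fntb changed by -1.61 (SE 0.16) in young and -1.91 (SE 0.16) in middle-aged mice, and Fnta by -1.39 (SE 0.17) and -1.57 (SE 0.17). Next came Dhdds, of dolichol synthesis, in young mice (-0.80, SE 0.14) and Srebf1, the gene of SREBP1, in middle-aged mice (-0.82, SE 0.17). With age 1 of the 25, Fntb, was lower in naïve and in injured tissue (-0.65 and -0.95, adjusted p = 0.0372 and 0.0100), and 0 were higher. Over all genes tested 1.78% were lower with age in naïve and 0.908% in injured tissue, so a count of 1 is near that share.

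Several of the 28 genes share sequence with others, which limits what their counts mean. Of all 31-base stretches in its transcripts, Acat2 shared 43.7% in the same sense with other genes, mainly Acat3. The same-sense share was 27.9% for Fdps, 25.6% for Tmem97, 18.8% for Idi1, 14.3% for Fdft1, 12.9% for Tm7sf2 and 10.3% for Ggps1, and at most 3.46% for the other 21 genes. In the opposite sense it was 17.6% for Fdft1, 13.2% for Acat2, 13.1% for Hmgcs1, 11.3% for Scap, 8.60% for Idi1 and 8.58% for Lbr. It was lower for the remaining genes. Exons of Tm7sf2 share 532 bases with Vps51, and those of Fdps 1124 bases with Gm43738, on the same strand. On the opposite strand, beside Fdft1, the exons of Scap share 985 bases, those of Hmgcs1 557, those of Lbr 440, those of Lss 381, those of Idi1 323, those of Ggps1 257 and those of Cyp51 166 bases with other genes. How reads that match several genes were counted is not given in the sources used here.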

How the data were processed

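Libraries were amplified with the REPLI-g protocol and sequenced on an Illumina NextSeq500 after laser capture of stained cryosections, per the study's methods. The deposited values are raw read counts per Ensembl gene. Per the labels and the submitters' processing notes, the authors checked reads with FastQC 0.11.4, mapped them to GRCm38 with TopHat2 2.0.10 on Bowtie 1.1.2, and counted them with featureCounts. The annotation release, strand setting and treatment of reads with several matches are not given in the sources used here. Amplification can make counts vary more than molecules do, and no molecular identifiers are named, so intervals cover the spread between libraries only.

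From the counts, edgeR 4.0.16 in R 4.3.3 was run with TMM scaling, the filterByExpr filter, 1 model of all 12 libraries with a coefficient per group, the quasi-likelihood F test, and p-values adjusted by Benjamini-Hochberg over the 15866 genes tested. CPM use the same scaling, and log2 CPM were taken with a prior count of 2. The script was tested on simulated counts. Symbols and exon lengths came from GENCODE M21, and promoter sequence from RefSeq (GRCm38.p6). A count of 3 in a library is 0.234 to 0.305 CPM, and each of the 28 genes had more in each library. Alternatives were RLE and upper quartile scaling, library totals alone, no filter, a minimum of 10 counts in 3 libraries, DESeq2 1.42.0, the replicate number as a block, only the libraries compared, a test beyond a 1.5-fold change, and leaving out each library in turn. Every one of the 28 genes is named, with library values for genes called in the comparison described and for the regulators. Of the 25 further genes, the 3 with the highest and the 3 with the lowest change among those called are named for each injury comparison. One listed symbol, Faxdc2, had no match and was not analysed here. Some cell type markers are not reported here. The 28 genes, the 25 further genes and the marker lists were chosen with earlier results of these data known. The libraries of a group differed beyond sampling noise (chi-square per degree of freedom at least 7.48). The highest values were 35.7 and 32.7, of middle-aged naïve library 2 against libraries 1 and 3 of its group. Those 2 libraries stood at 12.4 from each other.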

Additional observations from a re-analysis of the deposited data

Results flagged for a closer look

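Tm7sf2 is shown here because its change with injury differed between the ages by a test of the difference itself. The difference of the log2 fold changes, middle-aged minus young, was 1.63 (SE 0.24, adjusted p = 0.0227, edgeR's quasi-likelihood test), with a fall in all 3 injured libraries against all 3 naïve libraries in both ages. Testing for a change beyond 1.5-fold ended the call. Over the other alternatives run it lay between 1.51 and 1.72 on the log2 scale, and the adjusted p rose to 0.0905 when 1 library was left out. Exons of Tm7sf2 share 532 bases with Vps51 on the same strand, and the part of Vps51 reads in this difference was not tested. Groups of 3 libraries are too small for a test of single outlying libraries.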

How the results depend on the processing

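For 79 changes of single genes, 1579 values were recomputed under 20 alternatives each, or 19 for the difference in Tm7sf2. The test beyond 1.5-fold was read as counts alone and is not among them. Of these values 1445 kept direction and side of the threshold, 100 lost the call, 19 gained one and 15 turned sign. All 15 concern Insig2. In young mice its change of -0.0031 became 0.0092 with RLE scaling, 0.1952 with library totals alone, 0.0049 with no filter and 0.0106 with DESeq2, and -0.1289 to 0.1168 when 1 library was left out. In middle-aged mice its change of 0.0407 became -0.0094 with upper quartile scaling, and -0.0240 to 0.1577 over all alternatives. None of these passed the threshold.

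Of the 28 genes, injury in young mice raised 2 with library totals alone in place of 1, and injury in middle-aged mice raised 1 in place of 2 with the test beyond 1.5-fold. In middle-aged mice injury lowered 16 beyond 1.5-fold, 19 with library totals alone and 19 with only the libraries compared, in place of 22. In young mice it lowered 20 beyond 1.5-fold and 25 with only the libraries compared, in place of 21. Age in naïve mice lowered 9 with only the libraries compared and 8 beyond 1.5-fold, in place of 15. Age in injured mice lowered 0 beyond 1.5-fold, in place of 7. The difference of the injury effects was higher in 3 genes with no filter, in 3 with DESeq2 and in 0 beyond 1.5-fold, in place of 1. When 1 library was left out, injury raised 1 to 2 genes in young mice (2 without young naïve library 3) and lowered 20 to 25, and raised 1 to 3 in middle-aged mice (1 without middle-aged injured library 2) and lowered 18 to 22. Age lowered 11 to 18 in naïve and 1 to 10 in injured mice, and the difference was higher in 0 to 2. The counts under these alternatives are given without the matching shares over all genes and cannot be read against the shares of the main test.

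Deviations of same-numbered libraries from their group means were weakly correlated (from -0.113 to 0.153 over 18 pairs, 2 of them over 0.1). With 3 libraries per group this cannot decide whether the numbers pair the libraries. With the replicate number as a block, 21 genes fell and 1 rose in young mice, 21 fell and 2 rose in middle-aged mice, 16 were lower with age in naïve and 6 in injured mice, and 1 differed in the injury effect. Shares over all genes under the block are not given here, so these counts cannot be read against them. Of single calls, Cyp46a1 with injury in middle-aged mice was lost with RLE scaling, library totals, no filter, DESeq2, the block and only the libraries compared. Ebp in young and Scap in middle-aged mice were lost with library totals alone and with no filter, Ggps1 in middle-aged mice with library totals alone and with only the libraries compared, and Hsd17b7 in middle-aged mice with the latter. With the block, Tmem97 with age in naïve and Acat2 with age in injured mice were lost. In young mice Ggps1, Scap and Tmem97 gained a call with upper quartile scaling and with only the libraries compared, Fdft1 with the latter, Ggps1 with a minimum of 10 counts in 3 libraries, and Lbr with library totals alone, under which Fdft1 was also higher in middle-aged mice. With library totals alone, the median of all genes moved by 0.1966 with injury in young mice, and higher genes made up 62.4% of all calls in place of 51.8%. For the difference of the injury effects that median was -0.1322, and the share was 25.8% in place of 40.9%. The cause of these changes was not tested. Low counts limit Fdps, Cyp46a1 and Mvk.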
